A study of Mus musculus with 9 samples.

Results

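The 7 genes of mouse natural killer (NK) cells with much lower levels under transforming growth factor beta (TGF-β) described here are Fgd4, Khdc1b, Ndnf, Prrg1, Filip1, Celf4 and Alpk2. All 7 were found, among 16876 genes in the table, and all 7 were among the 12212 genes with enough counts to be tested. They were picked for their lower levels in treated than in untreated cells, so those differences are given as descriptions, with no test. RNA sequencing covered 9 libraries of NK cells grown from C57BL/6 bone marrow in culture with cytokines, ending with IL-15 and IL-2. In SIS3_TGFb (n = 3), cells were exposed to SIS3 at 10 µM for 3 h, a compound that blocks Smad3, before 3 h with 5 ng/mL of TGF-β1. In TGFb (n = 3) the same TGF-β1 was added alone, and Ctrl cells (n = 3) had neither. No group had SIS3 without TGF-β1, and no source used here names a vehicle. The sample titles of the SIS3_TGFb group name SIS3 alone, and its treatment label gives both agents. Whether the libraries of a group came from separate mice or cultures is not stated, so each p-value speaks only to the spread among these 9 libraries, which may be technical.

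TGF-β binds receptor kinases at the cell surface, and these activate Smad2 and Smad3, which enter the nucleus with Smad4 and raise or lower the transcription of target genes. In NK cells TGF-β is known for restraining killing and cytokine production. None of the genes described here is a textbook part of that pathway. Fgd4 (frabin) binds actin filaments and activates the small GTPase Cdc42. Filip1 binds filamin, a crosslinker of actin, and promotes its breakdown in migrating neurons. Ndnf is a secreted glycoprotein with fibronectin type III domains that was described in neurons, and Prrg1 is a membrane protein with a Gla domain, a segment whose glutamates are carboxylated with the help of vitamin K. Celf4 is an RNA-binding protein studied mainly in neurons. Khdc1b belongs to a mouse family of KH-domain genes known from oocytes and early embryos, and Alpk2 is one of the atypical alpha kinases, with a role in heart development known from zebrafish.

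The libraries held between 15714973 and 16718673 expected counts. Levels are given as CPM, counts relative to library totals that TMM factors correct for composition. Pmepa1, a feedback inhibitor that TGF-β induces, stood at 115 to 127 CPM in SIS3_TGFb, 133 to 143 CPM in TGFb and 0.426 to 0.801 CPM in Ctrl. Other genes checked for the pathway were Ski (means of 146, 184 and 21.9 CPM in that order) and Skil (192, 185 and 73.9 CPM). Smad7 averaged 31.7, 26.7 and 7.04 CPM, and Ldlrad4 48.0, 43.3 and 5.48 CPM. All were above Ctrl without overlap in both treated groups. Against TGFb, SIS3_TGFb was lower without overlap for Pmepa1 and Ski and higher for Smad7 and Ldlrad4. Skil overlapped. The 10 NK cell markers summed to 14534 to 14776 CPM in SIS3_TGFb, 12864 to 14095 CPM in TGFb and 17410 to 18391 CPM in Ctrl, and all 10 were detected. Most of this NK sum came from Gzmb (means of 7353, 5622 and 8278 CPM in that order) and Prf1 (4621, 4874 and 6244 CPM). Single NK markers went different ways. Ncr1 averaged 77.4, 39.5 and 151 CPM, Eomes 367, 517 and 544 CPM, and Tbx21 27.8, 23.2 and 21.2 CPM. Markers of other cells were present too. The 8 macrophage markers summed to 738 to 1252, 652 to 1021 and 906 to 1216 CPM in the same order of groups, and the 8 mast cell and basophil markers in the table to 449 to 523, 478 to 526 and 487 to 514 CPM. That sum hid opposite differences. Kit averaged 261, 232 and 177 CPM and Mcpt8 185, 217 and 249 CPM, while Cpa3 stood at 12.4 to 14.0, 14.45 to 21.3 and 28.3 to 30.3 CPM without overlap. Prss34 (25.7, 19.6 and 31.4 CPM), Ms4a2 (2.34, 2.28 and 3.58 CPM) and Fcer1a (1.40, 1.51 and 2.28 CPM) were lower on average in both treated groups. The macrophage sum averaged 930, 837 and 1070 CPM. The 6 neutrophil markers summed to 220 to 233, 234 to 248 and 258 to 298 CPM, with Elane, S100a8 and S100a9 under 1 CPM. The 5 stromal markers summed to 1040 to 1137, 1313 to 1378 and 1081 to 1112 CPM, with Cdh5, Col1a1 and Col1a2 under 1 CPM. The stromal sum thus rested on Pdgfrb and Pecam1, and whether it came from stromal cells was not tested. Each of the 4 B cell markers stayed under 1 CPM. No listed marker in the table was at 0 in every library, and the part of such cells in the levels below was not tested. In bulk RNA, fewer cells that hold a transcript and less transcript per cell cannot be told apart, which applies to every level below.

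Before treatment the genes covered a wide range of abundance. Per kilobase of exon (GENCODE M21 exon union), Filip1 was the most abundant in Ctrl at 16.7 ± 0.922 CPM per kb (SD, n = 3), above 78.5% of the 11955 tested genes with a length. Ndnf (3.69 ± 0.401 CPM per kb) and Alpk2 (3.33 ± 0.267 CPM per kb) came next and did not differ beyond their spread. Khdc1b followed at 2.03 ± 0.0392 and Celf4 at 0.547 ± 0.0191 CPM per kb. Prrg1 (0.376 ± 0.0499 CPM per kb) and Fgd4 (0.374 ± 0.00444 CPM per kb) were lowest and again did not differ beyond their spread. Celf4, Prrg1 and Fgd4 thus lay in the lowest 11.9% of the tested genes per kilobase. Read number is a separate matter, since it also depends on length. Fgd4, Khdc1b, Prrg1 and Celf4 held 11 to 40 counts in each treated library, so their values there rest on few reads.

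Promoter windows from RefSeq (GRCm38.p6), each with 250 bases before and 50 after a gene start, were listed for 4 of the 7 genes: 3 windows for Fgd4, 1 for Khdc1b, 2 overlapping ones for Prrg1 and 4 for Filip1. Ndnf, Celf4 and Alpk2 had no entry. The first window of each gene is shown because these genes were lower together in treated cells. Written 5′ to 3′ along the gene, they are chr16:16599929-16600228 on the minus strand for Fgd4, chr1:21383306-21383605 on the plus strand for Khdc1b, chrX:78583848-78584147 on the minus strand for Prrg1 and chr9:80012802-80013101 on the minus strand for Filip1. Capitals mark CACCTG, the E-box bound by ZEB and SNAI repressors, and CAGACA, the CAGA box bound by Smad3 and Smad4, on either strand.
Fgd4: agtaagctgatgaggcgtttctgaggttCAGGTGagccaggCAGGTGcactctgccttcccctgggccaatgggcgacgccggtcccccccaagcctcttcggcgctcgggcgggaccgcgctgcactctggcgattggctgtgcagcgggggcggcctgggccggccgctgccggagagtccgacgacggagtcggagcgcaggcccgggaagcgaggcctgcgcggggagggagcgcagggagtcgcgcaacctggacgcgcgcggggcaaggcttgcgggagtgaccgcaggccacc
Khdc1b: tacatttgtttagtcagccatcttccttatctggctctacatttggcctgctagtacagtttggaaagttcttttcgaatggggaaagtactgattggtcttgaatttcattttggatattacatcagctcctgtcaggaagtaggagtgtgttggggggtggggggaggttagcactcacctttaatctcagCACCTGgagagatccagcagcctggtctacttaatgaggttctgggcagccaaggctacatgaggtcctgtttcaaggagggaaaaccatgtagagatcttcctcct
Prrg1: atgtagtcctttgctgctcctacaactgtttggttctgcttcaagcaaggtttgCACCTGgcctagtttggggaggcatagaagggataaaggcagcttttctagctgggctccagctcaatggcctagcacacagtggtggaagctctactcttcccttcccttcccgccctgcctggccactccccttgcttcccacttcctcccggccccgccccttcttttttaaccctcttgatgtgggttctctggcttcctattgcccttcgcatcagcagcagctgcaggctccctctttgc
Filip1: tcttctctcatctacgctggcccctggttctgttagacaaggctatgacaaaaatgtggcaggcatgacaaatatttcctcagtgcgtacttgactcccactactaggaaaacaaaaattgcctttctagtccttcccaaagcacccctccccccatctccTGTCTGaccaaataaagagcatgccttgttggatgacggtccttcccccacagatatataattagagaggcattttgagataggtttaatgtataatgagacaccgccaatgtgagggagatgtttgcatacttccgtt

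CACCTG occurred in 4 of the 10 windows, those of 3 genes, against 20.2% of all 32851 windows in the table. It stood at bases 29 and 42 of the first Fgd4 window, base 194 of the Khdc1b window and base 55 of the first Prrg1 window, counted from the 5′ end. The fourth window with it was the second of Fgd4, where it overlapped AGGTGT, a T-box motif, which occurred in 2 of the 10 windows (13.7% of all). CAGACA occurred in 1 of the 10 windows, at base 162 of the first Filip1 window and so 89 bases before the gene start, against 21.04% of all windows. GGCGC, a GC-rich motif of SMAD proteins, occurred in 2 of the 10 windows (36.9% of all), and TGTGGT, the RUNX motif, in 1 (16.8% of all). TATAAA, the TATA box, also occurred in 1 window (13.6% of all). Neither the SMAD palindrome GTCTAGAC (0.213% of all windows) nor the TGF-β inhibitory element (1.00%), occurred in any of the 10. Both strands were searched for each motif. With so few windows these are descriptions of the letters, and binding was not measured.

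Fgd4 and Filip1, the genes tied to actin, stood well below their Ctrl level in both treated groups. Filip1 had 29.8, 29.3 and 29.7 CPM in SIS3_TGFb, 27.5, 24.95 and 30.4 CPM in TGFb, and 90.6, 82.0 and 82.9 CPM in Ctrl. The treated libraries lay in a narrow band far below Ctrl, and the treated groups overlapped each other. This left 34.7% of the Ctrl mean in SIS3_TGFb and 32.4% in TGFb, log2 changes of -1.53 ± 0.0623 (SE) and -1.63 ± 0.0635 against Ctrl. Fgd4 had 2.07, 1.57 and 2.15 CPM in SIS3_TGFb, 2.46, 1.59 and 0.732 CPM in TGFb, and 6.62, 6.47 and 6.57 CPM in Ctrl. Its Ctrl libraries were nearly equal (coefficient of variation 1.19%) and its TGFb libraries were not (54.3%), with the third far below the first. The log2 changes against Ctrl were -1.76 ± 0.244 in SIS3_TGFb and -2.02 ± 0.256 in TGFb.

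The spread of Fgd4 in TGFb went beyond counting error. TGFb replicate 1 held 40 counts of Fgd4 (exact 95% Poisson interval 28.6 to 54.5) and TGFb replicate 3 held 11 (5.49 to 19.7). These intervals cover counting error only. TGFb replicate 3 also had the lowest sums of T cell, erythroid and megakaryocyte, macrophage and dendritic cell markers of all 9 libraries. Mast cell and basophil genes followed the same order across TGFb replicates 1, 2 and 3 as Fgd4 (40, 26 and 11 counts). Prss34 had 555, 345 and 52 counts, Gata2 had 123, 86 and 7, Ms4a2 had 64, 39 and 8, and Fcer1a had 47, 27 and 0. The abundant Kit (3942, 3685 and 3442 counts) and Mcpt8 (3464, 3361 and 3497 counts) differed far less. The 4 T cell markers in the table (Cd3e, Cd3d, Cd4 and Cd8a) summed to 6.86 to 7.61 CPM in SIS3_TGFb, to 13.5, 9.58 and 3.20 CPM in TGFb replicates 1, 2 and 3, and to 6.88 to 7.55 CPM in Ctrl. The 7 erythroid and megakaryocyte markers summed to 29.2 to 32.4 CPM in SIS3_TGFb, to 38.0, 30.4 and 7.66 CPM in TGFb replicates 1, 2 and 3, and to 36.1 to 46.3 CPM in Ctrl. Of the second list, Hbb-bs and Klf1 stayed under 1 CPM. The part of these cells in the Fgd4 value was not tested. Without TGFb replicate 3 the log2 difference of TGFb from Ctrl was -1.69, and without TGFb replicate 1 it was -2.47.

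**Figure D1:**
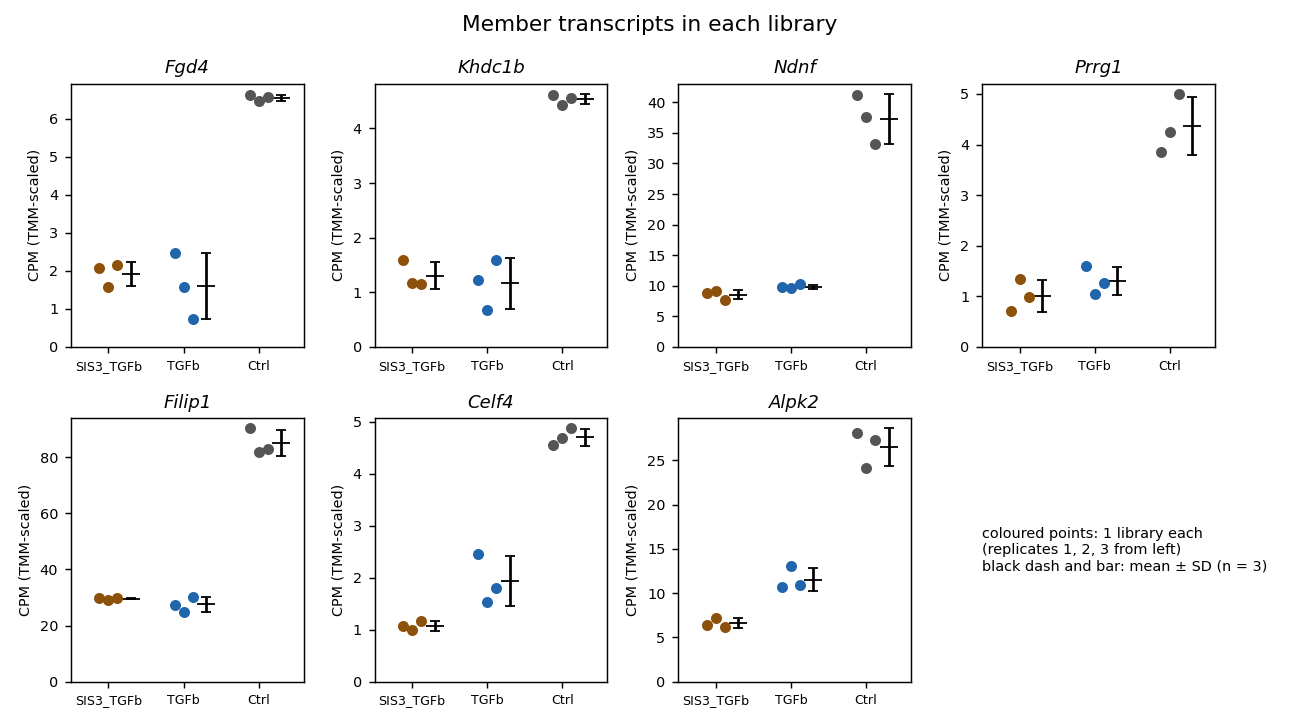
Levels of the 7 genes in CPM (y axes, linear, from 0) for SIS3_TGFb, TGFb and Ctrl libraries (x axes), with each library as a point and the mean ± SD beside it (n = 3). Every treated library lies below every Ctrl library for each gene, Fgd4 spreads from 0.732 to 2.46 CPM in TGFb, and Celf4 and Alpk2 are lower in SIS3_TGFb than in TGFb without overlap.

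**Figure D2:**
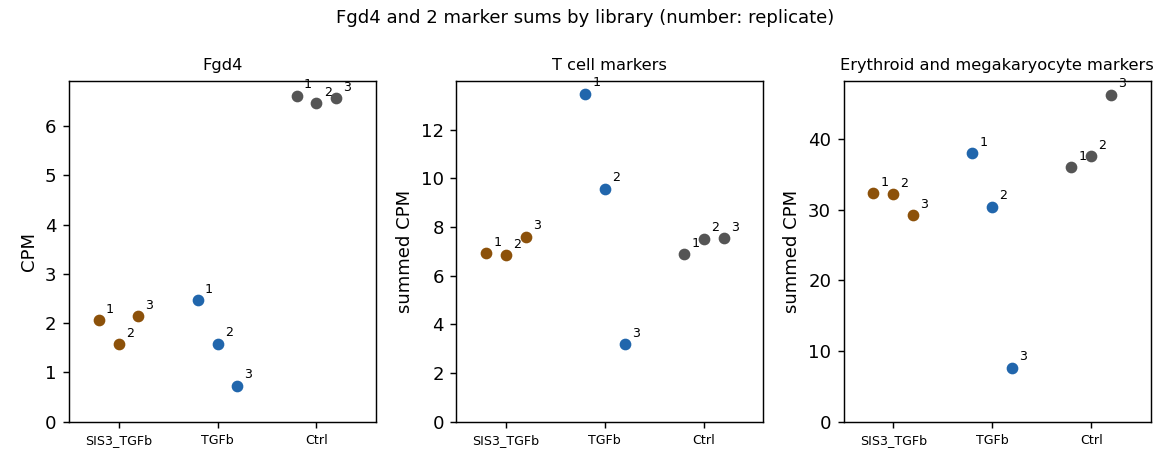
Fgd4 in CPM (left) and the summed CPM of T cell markers (middle) and of erythroid and megakaryocyte markers (right) in each SIS3_TGFb, TGFb and Ctrl library, with the replicate number at each point. TGFb replicate 3 is the lowest library in all 3 panels, at 0.732, 3.20 and 7.66 CPM.

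Ndnf and Prrg1, a secreted and a membrane protein, were also low in both treated groups. Ndnf had 8.80, 9.12 and 7.72 CPM in SIS3_TGFb, 9.73, 9.58 and 10.3 CPM in TGFb, and 41.2, 37.7 and 33.1 CPM in Ctrl. The 6 treated libraries lay within a few CPM of each other, and the SIS3_TGFb libraries were just below the TGFb libraries without overlap. Of the Ctrl mean, 22.9% was left in SIS3_TGFb (log2 -2.12 ± 0.0917) and 26.4% in TGFb (log2 -1.92 ± 0.0908). Prrg1 had 0.709, 1.34 and 0.987 CPM in SIS3_TGFb, 1.60, 1.04 and 1.26 CPM in TGFb, and 3.85, 4.25 and 4.99 CPM in Ctrl. Both treated groups overlapped, and their libraries held 12 to 26 counts of Prrg1 each. The log2 changes against Ctrl were -2.10 ± 0.240 in SIS3_TGFb and -1.74 ± 0.233 in TGFb.

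Celf4 and Alpk2 stood at their lowest in SIS3_TGFb, with TGFb in between and Ctrl highest. Celf4 had 1.06, 0.988 and 1.16 CPM in SIS3_TGFb, 2.46, 1.53 and 1.80 CPM in TGFb, and 4.54, 4.68 and 4.87 CPM in Ctrl. The 3 groups did not overlap, and TGFb replicate 1 was the highest treated library. Of the Ctrl mean, 22.8% was left in SIS3_TGFb (log2 -2.13 ± 0.209) and 41.0% in TGFb (log2 -1.28 ± 0.192). Alpk2 had 6.44, 7.21 and 6.21 CPM in SIS3_TGFb, 10.7, 13.1 and 10.9 CPM in TGFb, and 28.1, 24.1 and 27.3 CPM in Ctrl. Its groups were apart as well, with 24.98% of the Ctrl mean left in SIS3_TGFb (log2 -2.00 ± 0.1002) and 43.6% in TGFb (log2 -1.20 ± 0.0929). Of the Celf4 values 5 of 9 were not whole numbers, as arises where a counter shares reads between genes. In the GENCODE M21 transcripts no 100-base window of Celf4 stood in a transcript of another gene, while 13.9% of the Alpk2 windows did.

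Khdc1b stood at 28.8% of its Ctrl mean in SIS3_TGFb and 25.7% in TGFb. Its libraries had 1.59, 1.16 and 1.16 CPM in SIS3_TGFb, 1.23, 0.671 and 1.60 CPM in TGFb, and 4.605, 4.44 and 4.56 CPM in Ctrl. Treated libraries held 11 to 27 counts each, against 72 to 75 in Ctrl, and both treated groups overlapped. The log2 changes against Ctrl were -1.79 ± 0.233 in SIS3_TGFb and -1.96 ± 0.242 in TGFb. Khdc1b lies on chromosome 1 (21383556 to 21386384, GRCm38.p6), 13813 bases from Khdc1c, and Khdc1a lies in the same cluster. These near relatives matter for the counting. All 9 Khdc1b counts were whole and none of its 2137 transcript windows of 100 bases occurred in another gene, whereas Khdc1a and Khdc1c shared 501 windows (26.5% of those of Khdc1a). Their fractional counts summed to whole numbers, within 0.01, in all 9 libraries, so the split between Khdc1a and Khdc1c is uncertain and their sum is not. In expected counts, Khdc1a plus Khdc1c came to 87, 103 and 105 in SIS3_TGFb, 126, 136 and 110 in TGFb, and 190, 215 and 243 in Ctrl. Khdc1a was listed by family, though with earlier results of these data known, and was tested. It fell in TGFb against Ctrl (6.81 ± 0.956 against 12.2 ± 1.29 CPM, log2 -0.83 ± 0.124, edgeR adjusted p = 6.2e-05). It was lower again in SIS3_TGFb against TGFb (4.94 ± 0.259 CPM in SIS3_TGFb, log2 -0.46 ± 0.138, adjusted p = 0.0136), lost when TGFb replicate 2 was left out (adjusted p = 0.0667). Counted together, Khdc1a plus Khdc1c gave log2 -0.77 (adjusted p = 4.7e-05) and -0.44 (adjusted p = 0.00958) for the same 2 comparisons, an alternative chosen after seeing the data.

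**Figure D3:**
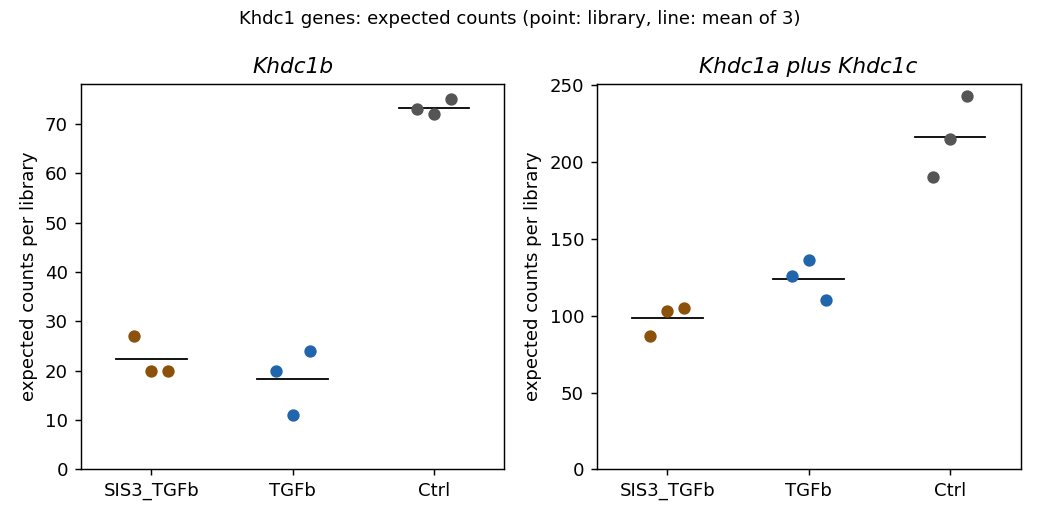
Expected counts per library (y axes, from 0, not scaled for depth) of Khdc1b (left) and of Khdc1a plus Khdc1c (right) in SIS3_TGFb, TGFb and Ctrl, with points for libraries and a line at the mean of 3. Khdc1b stands at 11 to 27 counts in treated and 72 to 75 in Ctrl libraries, and the summed relatives at 87 to 136 and 190 to 243.

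Against Ctrl, all 7 genes were lower without overlap in both treated groups. Of all tested genes 22.1% were lower without overlap in TGFb and 28.4% in SIS3_TGFb, and nothing is read from the members' share, since these contrasts chose them. Both comparisons use the same Ctrl libraries. Among tested genes with a mean of at least 2 CPM, Fgd4, Khdc1b, Ndnf, Prrg1 and Filip1 ranked 3, 4, 6, 7 and 8 by size of fall in TGFb versus Ctrl. Celf4 and Alpk2 ranked 26 and 36 there, and 4 and 7 in SIS3_TGFb versus Ctrl. Ndnf and Prrg1 ranked 5 and 6 in SIS3_TGFb versus Ctrl, and Khdc1b, Fgd4 and Filip1 ranked 17, 20 and 38. The median log2 change of the members was -2.00 in SIS3_TGFb and -1.74 in TGFb against Ctrl, beside 0.02 and -0.0036 over all genes tested.

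The step from TGFb to SIS3_TGFb asked whether pretreatment with the Smad3 inhibitor altered these levels in cells that all received TGF-β1. It was not one of the rule's contrasts, but it uses the treated libraries that chose the members, so its tests are not independent of the choice. In particular Celf4 and Alpk2 rank higher in SIS3_TGFb versus Ctrl (4 and 7) than in TGFb versus Ctrl (26 and 36). By edgeR's quasi-likelihood test, with Benjamini-Hochberg adjustment over all 12212 genes, 2 of 7 members fell and 0 rose. Of all genes 20.6% fell and 21.2% rose, 41.8% in either direction. The libraries were lower without overlap for 3 members (Ndnf, Celf4 and Alpk2), and for 24.9% of all genes. Alpk2 fell by 0.80 (SE 0.112) on the log2 scale (adjusted p = 3.6e-05, lower in 3 of 3 libraries). Celf4 fell by 0.85 (SE 0.240; adjusted p = 0.0104), and leaving out TGFb replicate 1 ended this call (log2 -0.63, adjusted p = 0.0650). The other 5 did not pass, and their 95% intervals bound the difference. Filip1 stood at log2 0.10 (-0.046 to 0.25, adjusted p = 0.261), although it passed without scaling factors (0.19, adjusted p = 0.0325). Ndnf stood at -0.20 (-0.44 to 0.030, adjusted p = 0.153). The intervals of the scarce genes were wide, at -0.38 to 0.90 for Fgd4, -0.45 to 0.79 for Khdc1b and -0.98 to 0.26 for Prrg1. For none of the 5 did the upper bound reach the size of its difference from Ctrl in TGFb. Those differences chose the members and may be too large for that reason, so no conclusion is drawn from this. Without TGFb replicate 3 the Fgd4 difference was -0.070, and without TGFb replicate 1 it was 0.71, neither past the test. Without TGFb replicate 2 the Khdc1b difference was -0.11.

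**Figure D4:**
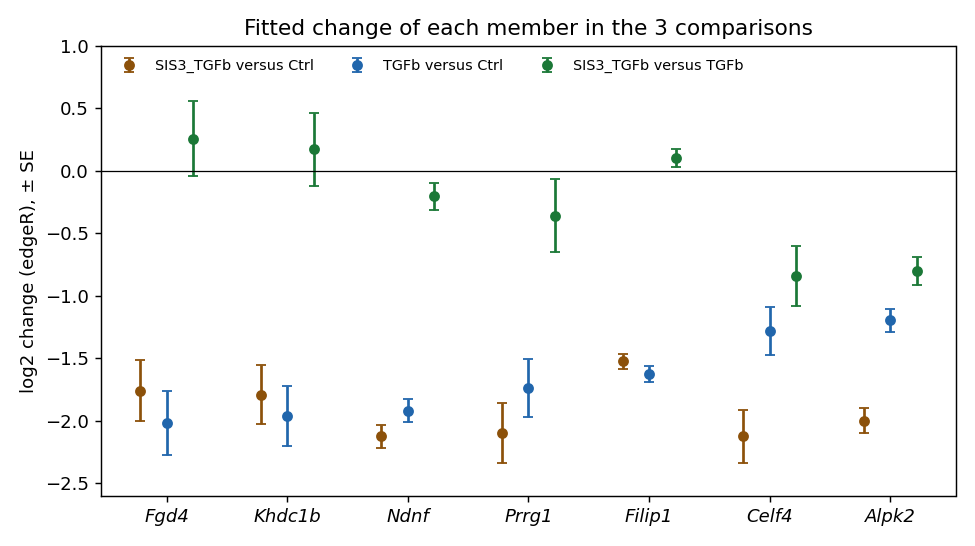
Fitted log2 changes ± SE (y axis) of the 7 genes (x axis) in SIS3_TGFb versus Ctrl, TGFb versus Ctrl and SIS3_TGFb versus TGFb. The first 2 comparisons lie between -2.13 and -1.20 for every gene. In the third, only Celf4 (-0.85) and Alpk2 (-0.80) passed the edgeR test. The SE bars of Ndnf, Prrg1 and Filip1 also miss 0 there, and these genes did not pass.

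The shapes of the genes' profiles were also compared. Likeness was measured as the root mean square difference of log2 CPM, centred on each gene's mean, over the 9 libraries, as a description. Of the 21 pairs of members, Celf4 and Alpk2 were closest (0.252), followed by Ndnf and Filip1 (0.257) and Khdc1b and Filip1 (0.266). Fgd4 was the most distant from the rest, at 0.480 to 0.655. Fgd4, Khdc1b, Prrg1 and Celf4 held 11 to 40 counts in each treated library, so counting error enters their distances. Its part was not tested. Candidates were the 10829 tested genes whose mean log2 CPM was 1 or more. The nearest to Alpk2 was Lifr, the receptor for leukaemia inhibitory factor (0.107), with 4.16 ± 0.338, 7.54 ± 0.452 and 15.6 ± 0.623 CPM in SIS3_TGFb, TGFb and Ctrl. The next was A4galt (0.117), a glycosphingolipid galactosyltransferase. Dok2, an adaptor that dampens tyrosine kinase signalling, was nearest to Filip1 (0.129), with 33.5 ± 0.934, 30.7 ± 3.88 and 81.7 ± 0.807 CPM in the same groups, followed by Ccr1l1 (0.175). The chemokine receptor Ccr2 was nearest to Ndnf (0.198) and Prrg1 (0.242) and second to Khdc1b (0.330). It had 156 ± 11.2 CPM in SIS3_TGFb, 186 ± 16.6 CPM in TGFb and 533 ± 11.2 CPM in Ctrl. Kcnk5, a potassium channel, was second to Prrg1 (0.284). Spin4 (0.215) and the lymphocyte GTPase gene Gimap7 (0.222) were nearest to Celf4. The transcription factor Irf4 (0.354) and Ms4a4b (0.372) were nearest to Fgd4.

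Relatives of the members by gene family did not share one direction. The 21 relatives were listed by family, though with earlier results of these data known. Of them 20 were in the table and 16 were tested. Prrg3 was not among them. In TGFb versus Ctrl, 3 rose, 6 fell and 7 did not pass (56.2% called, against 34.3% of all genes), with a median log2 change of -0.20. In SIS3_TGFb versus Ctrl, 4 rose, 5 fell and 7 did not pass (56.2% called, against 53.9%). In SIS3_TGFb versus TGFb, 2 rose, 3 fell and 11 did not pass (31.2% called, against 41.8%), although without scaling factors 8 passed, 6 up and 2 down.

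The FGD family of Cdc42 exchange factors went both ways. Fgd2 had 0.295, 0.872 and 0.406 CPM in SIS3_TGFb, 0.739, 0.671 and 0.865 CPM in TGFb, and 1.89, 2.40 and 2.43 CPM in Ctrl. It fell in TGFb (log2 -1.56 ± 0.308, adjusted p = 0.000855) and in SIS3_TGFb (-2.08 ± 0.324, adjusted p = 5.55e-05), each against Ctrl. Fgd2 is known from macrophages and B cells. The macrophage markers differed among themselves. Mrc1 had 5.91 to 9.41 CPM in SIS3_TGFb, 4.49 to 7.20 CPM in TGFb and 9.65 to 14.6 CPM in Ctrl, with both treated groups below Ctrl without overlap. The far more abundant Lyz2 overlapped between all groups (521 to 882, 452 to 733 and 657 to 892 CPM in the same order). So did the sum of the 8. The part of macrophages in the Fgd2 values was not tested. Fgd3 rose in TGFb, at 112 ± 7.55 CPM against 68.6 ± 3.801 CPM in Ctrl (log2 0.71 ± 0.0605), and so did the scarce Fgd1, at 1.18 ± 0.475 against 0.329 ± 0.0905 CPM (1.83 ± 0.404, 16.8 expected counts over the Ctrl libraries). Fgd5 (0.573 ± 0.198 against 0.825 ± 0.234 CPM) and Fgd6 (10.6 ± 1.05 against 9.66 ± 0.326 CPM) did not pass in the same comparison. In SIS3_TGFb versus TGFb, Fgd3 was lower (log2 -0.20 ± 0.0585, adjusted p = 0.0107), but not once SIS3_TGFb replicate 3 was left out (adjusted p = 0.0504) or scaling factors were dropped (0.0802).

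Among the alpha kinases, Alpk3, a muscle kinase, was higher where Alpk2 was lower. It had 2.01, 2.03 and 1.10 CPM in SIS3_TGFb, 1.29, 0.976 and 0.865 CPM in TGFb, and 0.252, 0.123 and 0.304 CPM in Ctrl, where 11 counts stood over the 3 libraries. It rose in TGFb (log2 2.17 ± 0.455, adjusted p = 0.0014) and in SIS3_TGFb (2.88 ± 0.412), each against Ctrl. Eef2k, which slows translation by phosphorylating elongation factor 2, fell in TGFb (204 ± 4.34 against 253 ± 5.07 CPM, log2 -0.31 ± 0.0361). Alpk1 (1.25 ± 0.284 CPM in TGFb, 1.67 ± 0.459 CPM in Ctrl) and the channel kinase Trpm7 (89.3 ± 4.49 against 89.7 ± 1.76 CPM) did not pass. Trpm6 was filtered out, with at most 1 count in any library.

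Beside Khdc1a, described above, the relatives of the other members differed from Ctrl by at most 0.41 on the log2 scale in TGFb. Filip1l, the paralog of Filip1, stood at 169 ± 5.71 CPM in SIS3_TGFb, 148 ± 5.22 CPM in TGFb and 166 ± 9.69 CPM in Ctrl. Its fall in TGFb was small (log2 -0.17 ± 0.0454, adjusted p = 0.0099) and ended without Ctrl replicate 1 (adjusted p = 0.0599). Celf2, the most abundant CELF gene by CPM here, fell slightly in TGFb against Ctrl (log2 -0.24 ± 0.0429). Celf1 did not pass in that comparison (0.083 ± 0.0392) and fell in SIS3_TGFb against TGFb (-0.36 ± 0.0396). Celf3, Celf5 and Celf6 were filtered out, with at most 1, 10 and 1 counts in a library. Prrg4 fell in TGFb (12.3 ± 0.989 against 16.4 ± 0.531 CPM, log2 -0.41 ± 0.0963, adjusted p = 0.00335). Prrg2 (4.08 ± 0.721 CPM in TGFb, 3.09 ± 0.425 CPM in Ctrl) did not pass (adjusted p = 0.101), although it did without TGFb replicate 1 (0.0365). Khdc1c (0.980 ± 0.486 CPM in TGFb, 1.17 ± 0.208 CPM in Ctrl) did not pass either.

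**Figure D5:**
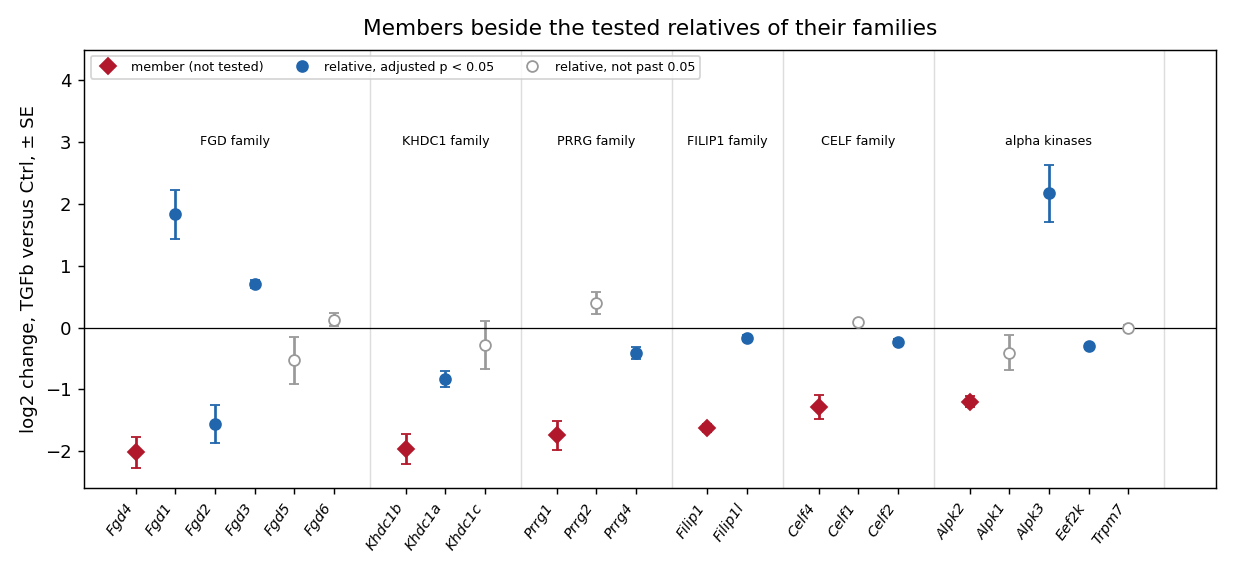
Log2 change ± SE in TGFb versus Ctrl (y axis) for 6 members (red diamonds, not tested) and the 16 tested relatives (circles, filled where adjusted p is below 0.05), grouped by family on the x axis. Fgd1, Fgd3 and Alpk3 lie above 0, Fgd2 and Khdc1a are the lowest relatives, and the rest lie between -0.53 and 0.40.

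The 33 known partners of the members were listed from general knowledge, and 30 were tested. In TGFb versus Ctrl 5 rose, 5 fell and 20 did not pass (33.3% called, against 34.3% of all genes). In SIS3_TGFb versus TGFb 4 rose, 14 fell and 12 did not pass (60.0%, against 41.8%), and without scaling factors 4 rose and 7 fell. In SIS3_TGFb versus Ctrl 7 rose, 10 fell and 13 did not pass (56.7%, against 53.9%). Of the Cdc42 axis, the substrate and effectors of Fgd4, 3 rose, 4 fell and 9 did not pass in TGFb versus Ctrl (43.8% called, against 34.3% of all genes). Pak1, a kinase that Cdc42 activates, fell (2.94 ± 0.474 CPM in TGFb against 5.02 ± 0.547 CPM in Ctrl, log2 -0.77 ± 0.187, adjusted p = 0.0044). Cdc42 itself stood at 836 ± 34.9 CPM in TGFb and 869 ± 11.4 CPM in Ctrl and did not pass (log2 -0.057 ± 0.0367). In SIS3_TGFb versus Ctrl the scaffold Baiap2 rose (log2 0.77 ± 0.0784), as did the effectors Cdc42se2 (0.72 ± 0.0377), Cdc42ep2 (0.70 ± 0.235) and Cdc42bpb (0.59 ± 0.219), and the kinase Cdc42bpa fell (-0.74 ± 0.0847). The libraries overlapped for Cdc42ep2 and Cdc42bpb.

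Of 8 genes of Gla-protein carboxylation and the receptors of Gla-protein ligands, 1 rose, 1 fell and 6 did not pass in TGFb versus Ctrl (25% called, against 34.3% of all genes). The receptor kinase Tyro3 rose (18.6 ± 0.830 CPM in TGFb against 11.9 ± 1.88 CPM in Ctrl, log2 0.64 ± 0.103), and its ligand Pros1 fell (1.98 ± 0.610 against 3.21 ± 0.432 CPM, -0.69 ± 0.238, adjusted p = 0.0344). Ggcx, the carboxylase that modifies Gla domains, rose in SIS3_TGFb against Ctrl (6.76 ± 0.504 against 4.74 ± 0.368 CPM, log2 0.51 ± 0.137, adjusted p = 0.0053). Neither tested filamin passed in TGFb versus Ctrl. Flna had 581 ± 17.5 CPM in TGFb and 587 ± 22.9 CPM in Ctrl, and it fell in SIS3_TGFb against TGFb (489 ± 5.73 CPM in SIS3_TGFb, log2 -0.25 ± 0.0373). Flnc was filtered out. Of the splicing regulators related in function to CELF proteins, Ptbp1 (log2 -0.33 ± 0.0335), Mbnl3 (-0.31 ± 0.0676), Mbnl1 (-0.17 ± 0.0419) and Mbnl2 (-0.16 ± 0.0511) fell in SIS3_TGFb against TGFb, where 20.6% of all genes fell, and the Mbnl2 libraries overlapped. This count depended on the scaling. Without scaling factors, which moved the median of all genes in that comparison to 0.095 on the log2 scale, against 0.012, Ptbp1 (-0.25) and Mbnl3 (-0.23) still passed, and Mbnl1 (-0.089, adjusted p = 0.0643) and Mbnl2 (-0.080, adjusted p = 0.262) did not.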

How the data were processed

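RNA was sequenced as 100-base pairs on a DNBseq instrument, per the labels' protocols. What the authors deposited is a matrix of expected counts (reads estimated by gene, unscaled). The unit was read from the values, of which 10.2% to 11.1% per library are not whole. Named in the submitters' processing notes are RSEM, Bowtie2, HISAT2, Cufflinks, StringTie and DESeq2, with the builds GRCm38 and mm10. Their versions and roles, and the annotation, are not given by the sources used here.

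Expected counts were rounded. Genes were kept by filterByExpr (minimum count 10, minimum total 15), scaled with TMM factors and fitted for all 9 libraries with 1 mean per group with the quasi-likelihood functions of edgeR 4.0.16 (glmQLFit, glmQLFTest; R 4.3.3), with Benjamini-Hochberg adjustment over 12212 genes and a threshold of 0.05. SEs come from dividing a log2 change by the root of its F statistic. Alternatives were median-of-ratios, upper-quartile or no scaling factors, no filter, DESeq2 1.42.0, limma voom (3.58.1), each library left out and the replicate number as a block. On simulated data the fit was checked to recover changes of known size. The members and the lists were chosen with earlier results of these data known. All members and all relatives with a count were named, partners with a called log2 change of at least 0.5, and the 2 genes nearest to each member in profile. Motifs were searched in RefSeq promoter windows (GRCm38.p6). These and the RefSeq positions were matched by Entrez ID, because RefSeq lists Khdc1b and Khdc1c as synonyms of each other. Transcript windows and exon lengths came from GENCODE M21 and were matched by gene symbol. Neither source may be the annotation the authors used.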

Additional observations from a re-analysis of the deposited data

How the results depend on the processing

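Of 160 recomputed counts of called genes, 157 stayed within 1.5 times the reported one. The exceptions were the members called in SIS3_TGFb versus TGFb, 1 to 2 of 7 when single libraries were left out (1 without TGFb replicate 1), and, without scaling factors, the relatives (8) and partners (11) called in that comparison. Without scaling factors 71.1% of the genes called in SIS3_TGFb versus TGFb were up, against 50.6%, and 63.8% against 53.8% in SIS3_TGFb versus Ctrl. With upper-quartile factors 41.3% were up in TGFb versus Ctrl, against 52.2%. All 224 recomputed member values against Ctrl kept their sign. Of 112 member values in SIS3_TGFb versus TGFb, 108 kept sign and call. Left-out libraries gave -0.070 to 0.71 for Fgd4 and -0.11 to 0.45 for Khdc1b. Of 768 values of relatives 726 were kept, 9 lost and 15 gained a call, and 18 changed sign with no call. In SIS3_TGFb versus TGFb these were Fgd1 (0.052 without scaling factors, 0.047 with limma voom, -0.30 to 0.25 with libraries left out), Fgd6 (0.0045 with upper-quartile factors, 0.081 without scaling factors, 0.00087 with limma voom, 0.00045 with the replicate block, -0.074 to 0.063 with libraries left out), Khdc1c (-0.72 to 0.18) and Prrg2 (-0.041 to 0.20). Filip1l was at -0.0022 with upper-quartile factors in SIS3_TGFb versus Ctrl (-0.00050 to 0.081 with libraries left out), and Trpm7 in TGFb versus Ctrl at -0.042 to 0.031. The causes were not tested. Same-numbered replicates of different groups had correlations from -0.147 to 0.126, and differently numbered ones from -0.163 to 0.145. No pairing by number was seen, but a weak one could be missed. With the replicate block 3942, 4803 and 6346 genes were called in TGFb versus Ctrl, SIS3_TGFb versus TGFb and SIS3_TGFb versus Ctrl, against 4190, 5104 and 6585, and 2 members in the second. Depth limits Fgd4, Khdc1b, Prrg1 and Celf4 most, with 11 to 40 counts in each treated library.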

Other observations

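The nearest protein-coding genes with a row in the table, 1 on each side of each member, gave 14 neighbours, of which 12 were tested. In TGFb versus Ctrl 1 rose, 5 fell and 6 did not pass (50.0% called, against 34.3% of all genes), with a median log2 change of -0.11. Tnip3, an inhibitor of NF-κB signalling that lies 37571 bases from Ndnf, fell most among them, at 5.24 ± 0.507 CPM in TGFb against 9.46 ± 0.994 CPM in Ctrl (log2 -0.85 ± 0.127, edgeR adjusted p = 6.4e-05). It stayed at 5.41 ± 0.275 CPM in SIS3_TGFb (log2 0.045 ± 0.135 against TGFb, adjusted p = 0.816). The kinase gene Prkx, 653375 bases from Prrg1, fell by 0.37 (SE 0.0595) on the log2 scale in TGFb versus Ctrl. Malt1, a signalling protease next to Alpk2, fell by 0.17 (SE 0.0436), and the genes beside Filip1, Tmem30a and Senp6, fell by 0.11 (SE 0.0327) and 0.15 (SE 0.0472). Pik3c3, as far as 4511095 bases from Celf4, rose by 0.14 (SE 0.0526). Among those that did not pass were Dnm1l beside Fgd4, Kcnq5 and Khdc1c beside Khdc1b, AW554918 beside Celf4 and Nedd4l beside Alpk2. Spag6l (152482 bases from Fgd4) and Dmd (4230750 bases from Prrg1) were filtered out. In SIS3_TGFb versus TGFb 1 neighbour rose, 3 fell and 8 did not pass (33.3% called, against 41.8% of all genes).

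RefSeq lists genes within the spans of Fgd4, Filip1, Celf4 and Alpk2 on either strand, long noncoding RNAs and pseudogenes, and none of these had a row in the table. No source used here says whether the counting used strand, so reads from such genes and from the members cannot be told apart where they overlap in exons.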
